A study of Rattus norvegicus with 6 samples.

Results

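Transcripts of 9 mitogen-activated protein (MAP) kinase genes (Mapk3, Mapk6, Mapk7, Mapk8, Mapk9, Mapk10, Mapk12, Mapk14 and Mapk15) were followed in the hippocampus of rats after treadmill training at a low or a high speed. The genes were found by the gene name printed on the array, after removal of the endings that mark predicted or mapped names, and they were read by 16 probes of 41012. MAP kinases stand at the end of a chain of kinases: a MAP kinase kinase kinase activates a MAP kinase kinase, which phosphorylates the MAP kinase, and dual-specificity phosphatases remove the phosphate again. In hippocampal neurons this chain carries signals of glutamate receptors, growth factors and stress to transcription factors such as Creb, Elk and Jun. Its output is set largely by phosphorylation, which transcript levels do not read.

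All rats were male Wistar rats aged 11 weeks at the start. CONT rats rested on the treadmill, ME rats ran at 15 m/min, below the lactate threshold, and IE rats ran at 40 m/min, above it. Training took 60 min a day on 5 days a week for 6 weeks in all. The first week (ME) or 4 weeks (IE) of these were a habituation with slight electric shocks, and IE rats sometimes received further shocks. The whole hippocampus was taken 24 or 36 h after the last session by the labels, while the study's methods give a longer delay. By these methods RNA of 5 rats was pooled in equal parts for each group, so each group was 1 pool and the spread between rats was not measured. The 3 pools were hybridised in pairs, ME with CONT, IE with CONT and IE with ME, each pair on 2 arrays with the dyes Cy3 and Cy5 swapped.

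Values below are log2 ratios of the first-named over the second-named group, given for the array with the first-named group in Cy5, then for the swapped array, then as mean ± SD between these 2 arrays. By the methods the 2 arrays hold the same pools, and the SD is then technical, but the labels call them Pool 1 and Pool 2, and which holds could not be settled. No value here tests a difference between rats. A probe was called up-regulated when the array with the first-named group in Cy5 gave a Cy5/Cy3 ratio of 1.5 or more and its dye swap a ratio of 0.75 or less (0.58 and 0.42 on the log2 scale once turned), with the p-value of the scanner software below 0.01 on both arrays, and down-regulated for the reverse. That p-value covers the error of a spot on its array and nothing beyond it.

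The results turned on the probes below, printed in lower case, 5′ to 3′, as the arrays carry them, with positions on the rat build rn3 from the file headers. The Mapk15 probe gave the dimmest readings, the first Mapk6 probe followed the dye, and the probes of Mapk9, Mapk10, Mapk12 and Mapk3 are those whose values are described one by one. Positions of the Mapk15, Mapk10, Mapk12 and Mapk3 probes span more genome than the probe's 60 bases, as they do when a probe joins neighbouring exons.
Mapk15 A_44_P358227 (chr7:114065299-114065465, plus strand): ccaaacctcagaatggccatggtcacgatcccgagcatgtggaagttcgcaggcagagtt
Mapk6 A_44_P461518 (chr8:80233857-80233916, minus strand): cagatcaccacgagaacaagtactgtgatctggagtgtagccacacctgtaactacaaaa
Mapk9 A_44_P480222 (chr10:35379290-35379349, plus strand): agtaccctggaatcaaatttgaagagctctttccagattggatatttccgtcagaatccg
Mapk10 A_44_P482281 (chr14:7996938-7998704, plus strand): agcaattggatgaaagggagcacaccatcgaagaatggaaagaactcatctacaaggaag
Mapk12 A_44_P486891 (chr7:127467580-127467737, minus strand): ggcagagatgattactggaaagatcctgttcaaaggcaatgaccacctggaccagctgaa
Mapk3 A_44_P404198 (chr1:186086211-186088392, plus strand): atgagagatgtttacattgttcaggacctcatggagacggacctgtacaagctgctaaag
The GC content of the 16 probes ran from 35.0% to 55.0%, and the Mapk15 probe had the highest.

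None of the 16 MAP kinase probes was called in any of the 3 comparisons. The arrays as a whole called few probes: 0.122% of 40922 probes in ME vs CONT, 0.0293% of 40957 in IE vs CONT and 0.0732% of 41009 in IE vs ME, so 0 of 16 lay near that background. Of the 48 mean ratios (16 probes in 3 comparisons), 45 were within 0.25 of 0 on the log2 scale. Beside Mapk15, the largest was 0.27 in size. The median size of a mean ratio over the 16 probes was 0.037 in ME vs CONT, 0.096 in IE vs CONT and 0.050 in IE vs ME, against 0.051, 0.055 and 0.077 over all probes. Over probes well above background in all 4 readings of a pair it was 0.041, 0.045 and 0.048, so the members' value in IE vs CONT was the larger. These are small differences beside the limits of the call, and the plot of ratios on each array shows them probe by probe.

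**Figure D1:**
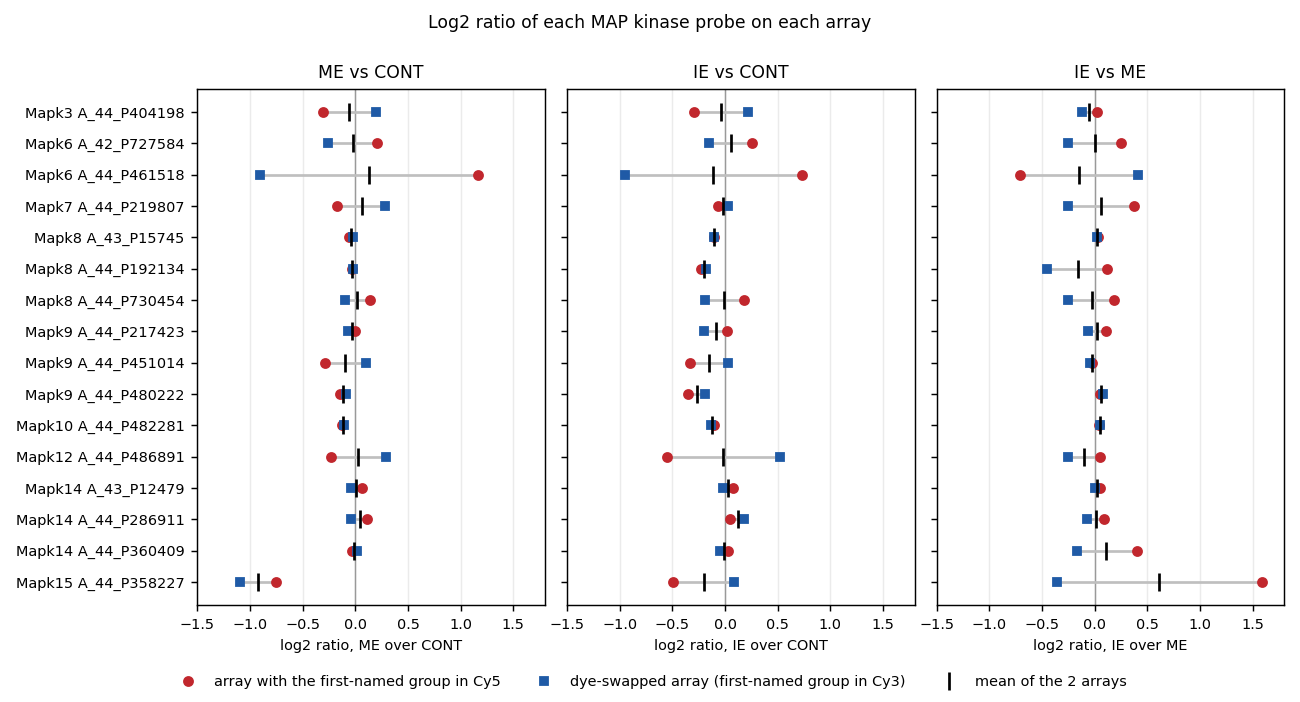
Log2 ratio (horizontal axis) of each of the 16 MAP kinase probes (rows) in the 3 comparisons, with the array that had the first-named group in Cy5 (circle), the dye-swapped array (square) and their mean (bar). Most means sit near 0. Mapk15 reaches -0.92 in ME vs CONT and 0.61 in IE vs ME, and the circles and squares of Mapk6 A_44_P461518 lie on opposite sides of 0.

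Detection separated 1 gene from the others. Over the 6 arrays each probe gave 12 readings (a pool in a channel of an array), and 14 of the 16 probes were well above background, by the software's flag, in all of them. Mapk15 was well above background in 5 of 12 readings and Mapk6 A_44_P461518 in 11 of 12. No reading was saturated. The dimmest signal that the software called well above background was 8.39 to 20.5 intensity units, depending on array and channel, and the median of all probes was 66.4 to 98.8. Mapk15 read between 4.09 and 42.8 units, mostly around that lower limit. Brightness also depends on each probe's own hybridisation, so the probes were not ranked against each other as transcript levels. In pooled tissue, fewer cells of a type and less RNA per cell cannot be told apart.

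**Figure D2:**
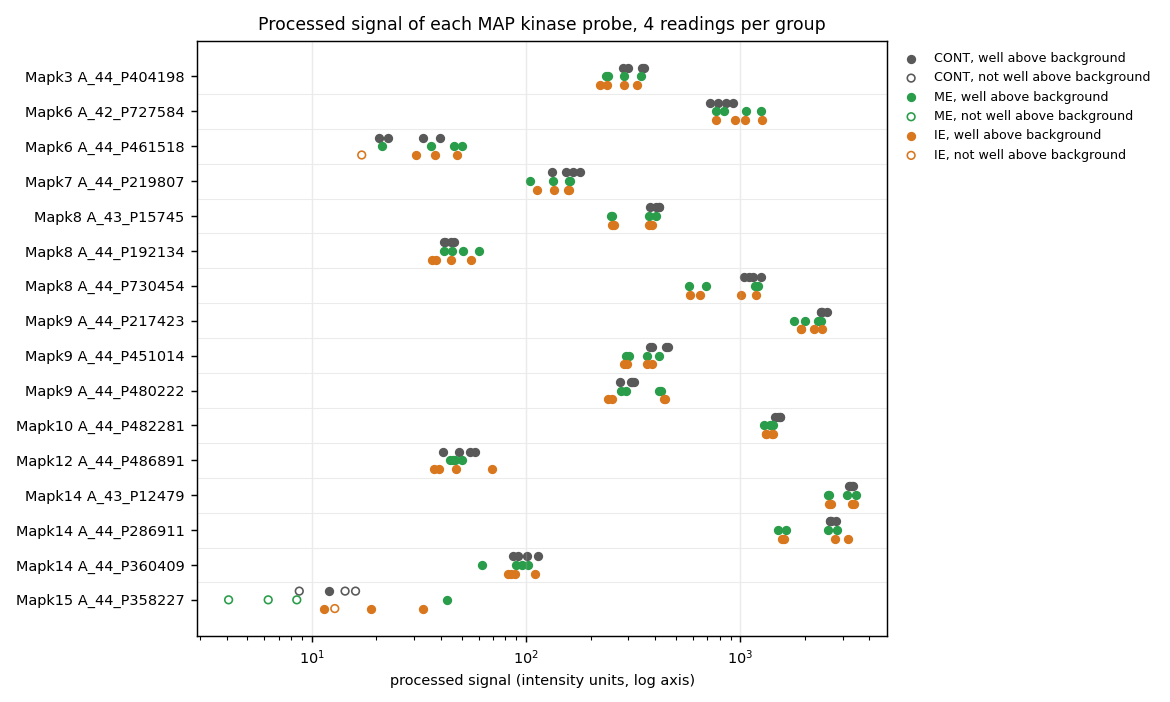
Processed signal in intensity units (horizontal log axis) of each MAP kinase probe (rows), 4 readings for each of CONT, ME and IE, filled where well above background and open where not. Open points occur for Mapk15 (7 of 12 readings) and once for Mapk6 A_44_P461518. ME and IE readings include the 2 arrays of the IE vs ME pair, where several probes were dimmer in both groups.

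Mapk15, an atypical MAP kinase known for roles in autophagy and in the formation of cilia, gave the largest mean ratio of the 9 genes. In ME vs CONT its probe read 14.3 (Cy3) and 8.74 (Cy5) units for CONT and 8.51 (Cy5) and 4.09 (Cy3) for ME. ME was the lower on each array, though the CONT reading in Cy5 lay within 1 unit of the ME reading in Cy5 on the other array. The software's ratios were -0.75 and -1.09, a mean of -0.92 ± 0.24, with software p-values of 0.14 and 0.31. Neither p passed the threshold and 0 of the 4 readings were well above background, so no fold between the pools is given. Without the p threshold Mapk15 passed the ratio limits downward, as did 0.440% of all probes.

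The ratio depended on the treatment of the background. Adding an offset or leaving the background in draws ratios of dim probes towards 0 by construction, so these values bound nothing about the transcript. With a normexp correction (a model of signal plus background, offset 50) and loess, Mapk15 gave -0.02 and 0.07 in ME vs CONT, a mean of 0.03 ± 0.06. With no background subtraction and loess the mean was -0.06 ± 0.07.

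In IE vs CONT the Mapk15 readings were 16.0 (Cy3) and 12.0 (Cy5) for CONT and 11.4 (Cy5) and 12.8 (Cy3) for IE, and the groups overlapped. The ratios of -0.49 and 0.09 pointed opposite ways, with a mean of -0.20 ± 0.42 and p-values of 0.32 and 0.87. The 2 readings well above background were those in Cy5. In IE vs ME the probe read 6.26 (Cy3) and 42.8 (Cy5) for ME and 18.8 (Cy5) and 33.2 (Cy3) for IE, so both IE readings lay between the ME readings. The ratios were 1.59 (p-value 0.0078) and -0.36 (p-value 0.22), a mean of 0.61 ± 1.38. ME, a single pool by the methods, thus read lowest and highest of the 4 signals on these arrays, and the spread between arrays exceeded the mean. Normexp gave 0.12 ± 0.03 and no subtraction 0.08 ± 0.01 for IE vs ME, and -0.00 ± 0.13 and -0.03 ± 0.15 for IE vs CONT.

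**Figure D3:**
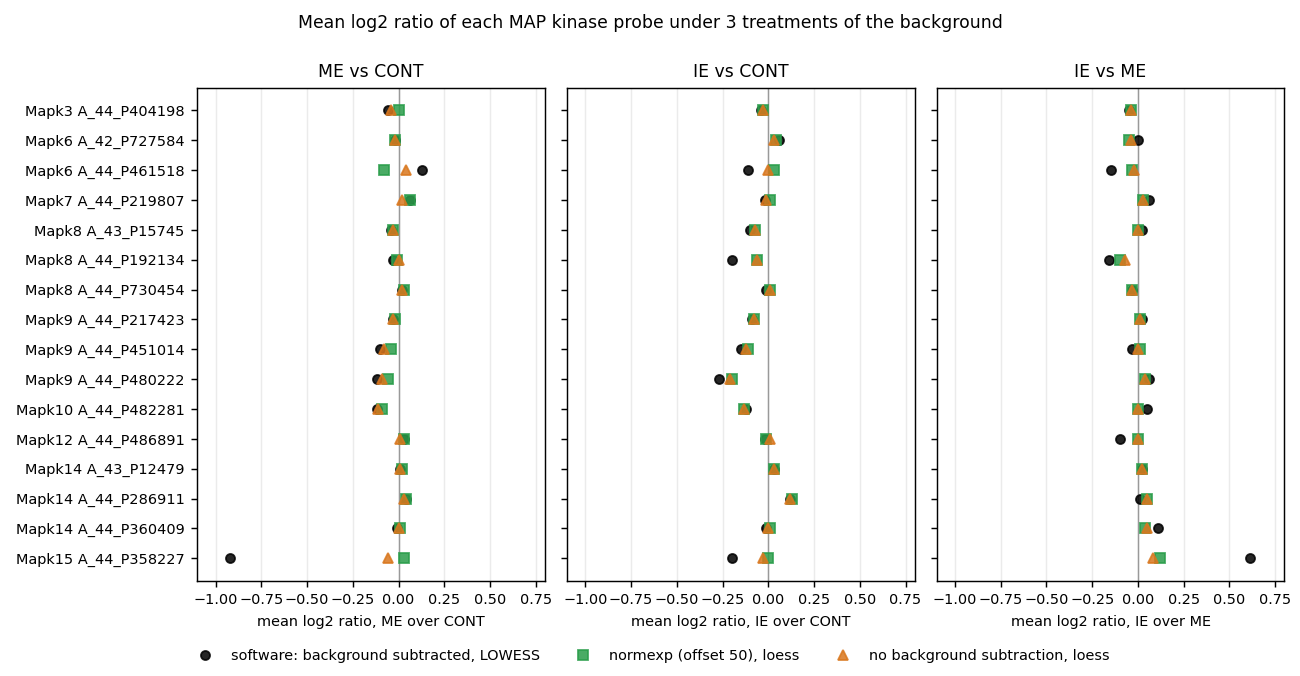
Mean log2 ratio (horizontal axis) of each MAP kinase probe (rows) in the 3 comparisons with the background subtracted by the scanner software (circle), corrected by normexp with an offset of 50 (square) or not subtracted (triangle). Mapk15 moves from -0.92 to 0.03 and -0.06 in ME vs CONT, and the brighter probes move less, as both alternatives act most on dim signals.

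Markers of ciliated ependymal cells were read beside Mapk15. The 4 probes (Foxj1, Rsph1, Dnai1 and Tekt1) were lower on both arrays in ME vs CONT, with a median of -0.177 and 0 called, and had medians of 0.037 in IE vs CONT and 0.127 in IE vs ME. Foxj1, the master regulator of motile cilia, gave -0.28 ± 0.20 in ME vs CONT and 0.34 ± 0.27 in IE vs ME. Their summed signal ran from 965 to 1030.1 units in CONT, 371 to 878 in ME and 444 to 1074 in IE, where the lower ends include the IE vs ME arrays. Each marker was well above background in 1 or more readings of each group. Whether such cells had a part in the Mapk15 readings was not tested.

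Mapk6 (ERK3) is another atypical kinase, which lacks the usual activation motif and pairs with the kinase Mapkapk5. With the software's values its probe A_44_P461518 followed the dye and not the group. In ME vs CONT it read 46.0 (ME) and 39.7 (CONT) units in Cy5 but 20.6 (CONT) and 21.3 (ME) in Cy3. Both Cy5 readings were above both Cy3 readings, whichever pool they held. The ratios were therefore 1.16 (p-value 4.7e-05) and -0.90 (p-value 0.0038), both past the limits, with a mean of 0.13 ± 1.45. The same dye was brighter past the limits and the p threshold on both arrays, here Cy5, for 0.831% of all probes in this comparison.

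In IE vs CONT the probe again read brighter in Cy5 (37.4 and 33.2 units) than in Cy3 (22.6 and 17.1), with ratios of 0.73 and -0.95 and a mean of -0.11 ± 1.19. On the IE vs ME arrays the order of the dyes was the other way, with 30.8 and 35.9 units in Cy5 and 50.3 and 47.8 in Cy3. The ratios there were -0.71 and 0.41, a mean of -0.15 ± 0.79. These last arrays lay on another slide and were read with another version of the software. The gap between dyes was smaller under the other treatments of the background: in ME vs CONT the ratios were 0.07 and -0.22 with normexp and 0.30 and -0.22 with no subtraction. The second Mapk6 probe, A_42_P727584, was brighter (725 to 1257 units) and gave means of -0.02 ± 0.33, 0.06 ± 0.29 and -0.00 ± 0.35. The Mapk6 probes differed by 0.15 to 0.17 in their means, less than either probe's own spread.

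The share of members that followed the dye lay near that of all probes. The same dye was the brighter on both arrays of a pair for 11 of 16 probes in ME vs CONT, 11 in IE vs CONT and 12 in IE vs ME, against 62.3%, 63.4% and 72.2% of all probes. Of the 12 probes whose dye part had the same sign in both comparisons with CONT, 5 kept it in IE vs ME and 7 had the other sign. The swap of dyes removes this part from the mean but leaves it in the SD. Over the 16 probes the median SD was 0.138, 0.134 and 0.165 in the 3 comparisons, beside 0.159, 0.168 and 0.255 over all probes. Over probes well above background in all 4 readings it was 0.134, 0.143 and 0.155, close to the members.

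**Figure D4:**
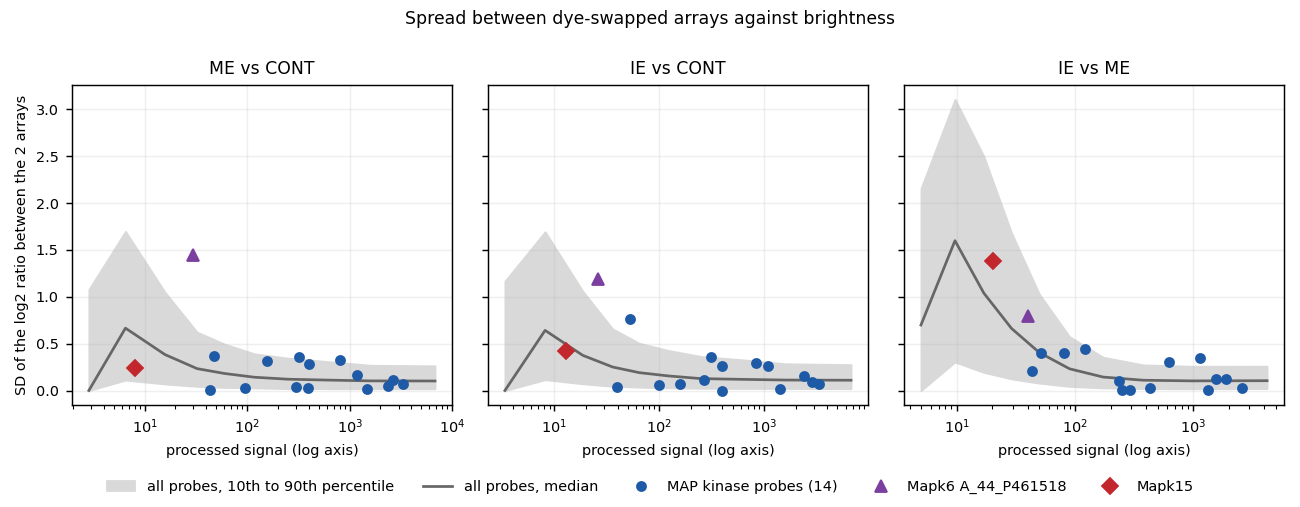
SD of the log2 ratio between the 2 arrays (vertical axis) against the geometric mean processed signal (horizontal log axis) for the MAP kinase probes, over the 10th to 90th percentile (band) and median (line) of all probes in 10 classes of brightness. The 14 other probes lie between 0.00 and 0.44, but for Mapk12 at 0.76 in IE vs CONT. Above the 90th percentile of their brightness class lie 7 of 48 values: Mapk6 A_44_P461518 in both comparisons with CONT, by the most, Mapk12 in IE vs CONT, Mapk3 and Mapk6 A_42_P727584 in ME vs CONT, and the latter and Mapk8 A_44_P730454 in IE vs ME. Mapk15 lies within the band. In the dimmest class the software sets many ratios to 0.

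Mapk3 (ERK1) and Mapk7 (ERK5) are the kinases of the growth factor branches, activated by Map2k1 and Map2k2 and by Map2k5. Mapk3 read 356 (Cy3) and 298 (Cy5) units for CONT and 287 (Cy5) and 342 (Cy3) for ME. It was brighter in Cy3 for either pool, with ratios of -0.31 and 0.20 and a mean of -0.06 ± 0.36. The IE vs CONT ratios were -0.29 and 0.22, a mean of -0.04 ± 0.36, and the IE vs ME mean was -0.05 ± 0.10. This probe was printed as 10 spots per array, and the median SD between spots was 0.06, so the gap between dyes was several times the error of a spot. Mapk7 gave means of 0.06 ± 0.32, -0.02 ± 0.07 and 0.06 ± 0.44.

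The Jun N-terminal kinases are activated by stress and phosphorylate Jun. Mapk8 (JNK1), Mapk9 (JNK2) and Mapk10 (JNK3, the form found mainly in brain) had 7 probes, the largest class here. The mean ratio was below 0 for all 7 in IE vs CONT (-0.27 to -0.01) and for 6 of 7 in ME vs CONT (-0.12 to 0.02), beside 46.4% and 48.4% of all probes. By the methods both comparisons used the same CONT pool. In IE vs ME, which did not, 3 of 7 were below 0, and the values ran from -0.16 to 0.06. On both arrays of the pair, 4 of the 7 were lower in IE vs CONT (13.0% of all probes) and 4 in ME vs CONT (14.2%). None passed the ratio limits. With normexp or no subtraction the count below 0 in IE vs CONT was 6 of 7, as Mapk8 A_44_P730454 moved from -0.01 to 0.01, and in ME vs CONT it was 6 with normexp and 5 with no subtraction.

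Mapk9 A_44_P480222 gave the largest mean of the clearly detected members. It read 320.4 (Cy3) and 275 (Cy5) units for CONT and 251 (Cy5) and 240.1 (Cy3) for IE on the IE vs CONT arrays, where the groups did not overlap. The ratios were -0.35 and -0.19, a mean of -0.27 ± 0.11, with p-values of 0.092 and 0.35. In ME vs CONT they were -0.15 and -0.09 (-0.12 ± 0.04) and in IE vs ME 0.05 and 0.08 (0.06 ± 0.03). Its other probes gave smaller IE vs CONT means, -0.09 ± 0.16 for A_44_P217423 and -0.15 ± 0.26 for A_44_P451014, and the means of the 3 probes ranged over 0.18. The p-values did not pass on any array.

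Mapk10 varied little between the arrays of a pair. CONT read 1531 and 1530.4 units and ME 1399.9 and 1422 on the ME vs CONT arrays, and CONT read 1506 and 1449 and IE 1401 and 1324 on the IE vs CONT arrays. CONT was the brighter on all 4 arrays. ME gave ratios of -0.13 and -0.11 (-0.12 ± 0.02), IE gave -0.10 and -0.13 (-0.12 ± 0.02), and the IE vs ME arrays gave 0.04 and 0.05 (0.05 ± 0.01). Each of these is far inside the limits of the call, and p-values ran from 0.52 to 0.85.

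For Mapk8 the 3 probes gave IE vs CONT means of -0.10 ± 0.00 (A_43_P15745), -0.20 ± 0.04 (A_44_P192134) and -0.01 ± 0.26 (A_44_P730454). In ME vs CONT they were -0.04 ± 0.03, -0.03 ± 0.01 and 0.02 ± 0.17. The probe A_44_P192134 was printed as 10 spots and had a median SD between spots of 0.20, with standard errors over spots of 0.039 and 0.085 on the IE vs CONT arrays. Its IE vs CONT mean was -0.06 with normexp and also with no subtraction. It read 44.6 and 41.2 units for CONT and 38.1 and 36.3 for IE. In IE vs ME it gave 0.12 and -0.45 (-0.16 ± 0.40), on opposite sides of 0.

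Genes with a pattern like that of Mapk9 A_44_P480222 were looked for among the pathway genes described below. Over the 6 arrays, the mean absolute difference in log2 ratio from it was smallest for Mef2a A_44_P752074 (0.10), a transcription factor, Rasa1 A_44_P230712 (0.10), a Ras GTPase-activating protein, and Map2k4 A_43_P19143 (0.11), a kinase that activates the JNKs. The median over the 95 candidates was 0.20. By the methods the 6 arrays held only 3 pools, and likeness at this size is within the spread between arrays seen for many probes.

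The p38 kinases respond to stress and cytokines. Mapk14 (p38alpha) had 3 probes. The probe A_43_P12479 read 3311 and 3249.6 units for CONT and 3455 and 3159.7 for ME, and then 3213 and 3339 for CONT and 3398 and 3304 for IE. The groups overlapped in both comparisons. Its means were 0.01 ± 0.07, 0.03 ± 0.07 and 0.02 ± 0.03, and the median SD between its 10 spots was 0.03. The probe A_44_P286911 gave 0.04 ± 0.11, 0.12 ± 0.09 and 0.01 ± 0.12. The third, A_44_P360409, gave -0.01 ± 0.03, -0.01 ± 0.06 and 0.11 ± 0.40.

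Mapk12 (p38gamma, best known from muscle) was dimmer and followed the dye. In IE vs CONT it read 57.8 (Cy3) and 48.4 (Cy5) units for CONT and 39.4 (Cy5) and 69.1 (Cy3) for IE, so the IE readings lay on both sides of the CONT readings. The ratios were -0.55 (p-value 0.026) and 0.52 (p-value 0.032), and the mean was -0.02 ± 0.76. In ME vs CONT they were -0.23 and 0.29 (0.03 ± 0.37), and in IE vs ME 0.05 and -0.25 (-0.10 ± 0.21).

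Genes above and below the MAP kinases were read from 8 lists. Of 102 genes listed, 87 were on the array with 117 probes, and 0 of the 117 were called in any comparison. Their median log2 ratios were 0.000, 0.006 and 0.006, beside 0.000, 0.000 and -0.002 over all probes. Without the p threshold, 0 passed the limits in ME vs CONT, 0 in IE vs CONT (0.667% of all probes passed) and 1 in IE vs ME (1.06%). That probe was Dusp10 A_44_P264892, a phosphatase of JNK and p38, with -1.02 and -0.67 (-0.85 ± 0.24, p-values 0.18 and 0.31) and 1 of 4 readings well above background.

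**Figure D5:**
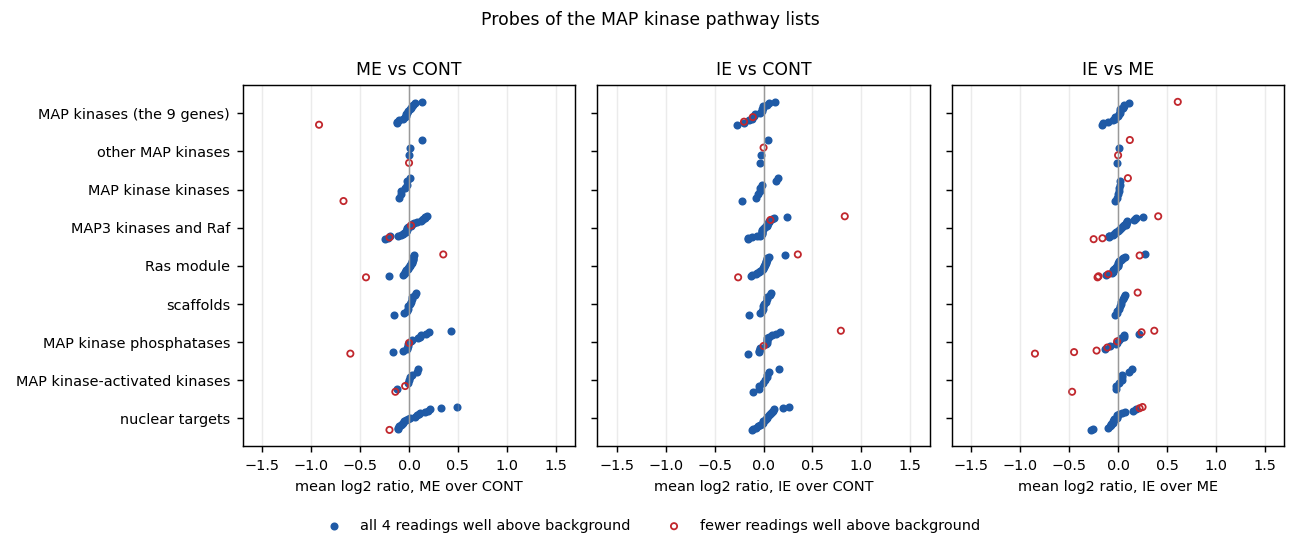
Mean log2 ratio (horizontal axis) of the 16 MAP kinase probes (top row) and the 117 probes of the 8 pathway lists (other rows) in the 3 comparisons, filled where all 4 readings were well above background. Points far from 0 are mostly open, as are Mapk15 in ME vs CONT (-0.92) and Dusp10 in IE vs ME (-0.85). Jund (0.49), Dusp1 (0.43) and Fos (0.33) are filled points to the right in ME vs CONT.

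Among other MAP kinases, Mapk4, an atypical kinase related to Mapk6, gave 0.13 ± 0.20 in ME vs CONT and 0.05 ± 0.38 in IE vs CONT, and Mapk13 (p38delta) was not well above background in any reading. None of the 8 probes of MAP kinase kinases was called, and 4 were lower on both arrays in ME vs CONT and 4 in IE vs CONT. Here and below, a gene with several probes is given by the probe picked for a large mean of 1 sign on both arrays. Map2k4 gave -0.08 ± 0.10 with ME and -0.22 ± 0.07 with IE, and its other probe -0.04 ± 0.03 and -0.08 ± 0.03. Map2k7, which also activates the JNKs, gave 0.15 ± 0.03 with IE. Map2k2, which activates Mapk3, gave -0.10 ± 0.02 with ME, and Map2k3, which activates p38, -0.03 ± 0.03 in IE vs ME.

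Upstream kinases of the MAP3 kinase and Raf list had 26 probes. Map3k7 (TAK1), which responds to TGF-beta and cytokines, gave -0.19 ± 0.09 with ME and 0.24 ± 0.08 with IE, opposite signs at sizes below the limits, while its other probe gave 0.02 ± 0.23 and 0.01 ± 0.24. Map3k2 gave -0.25 ± 0.13 with ME, Map3k3 -0.16 ± 0.16 with IE, and Map3k1 and Taok3 0.25 ± 0.16 and 0.18 ± 0.09 in IE vs ME. The other Map3k3 probes gave 0.03 ± 0.17 and -0.16 ± 0.72 with IE. Those of Map3k1 and Taok3 gave 0.17 ± 0.16 and 0.08 ± 0.18 in IE vs ME. In the Ras module of 23 probes, Sos1, an exchange factor for Ras, gave 0.27 ± 0.23 in IE vs ME, and its other probe 0.00 ± 0.37. Rasgrp1 gave -0.13 ± 0.15 with IE and Rasa1 -0.12 ± 0.11 with IE. Hras gave -0.05 ± 0.01 with ME and Rap1a -0.05 ± 0.03 in IE vs ME. Of the 11 scaffold probes, Ksr1 gave -0.15 ± 0.18 with ME and Arrb1 0.07 ± 0.07 with ME and 0.07 ± 0.04 with IE. Mapk8ip1, a scaffold of the JNK pathway, gave 0.06 ± 0.03 in IE vs ME.

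Phosphatases and nuclear targets held the largest ratios of list probes detected in all 4 readings, and these came with ME. Dusp1, an immediate early gene whose product switches off MAP kinases, gave 0.24 (p-value 0.26) and 0.63 (p-value 0.0036), a mean of 0.43 ± 0.28. Jund, a partner of Fos in the AP-1 complex, gave with its probe A_43_P15517 0.13 (p-value 0.52) and 0.86 (p-value 9.5e-05), a mean of 0.49 ± 0.51. Its other probe, A_42_P537443, gave 0.05 and 0.32 (0.19 ± 0.19), with p-values of 0.81 and 0.12. Fos gave 0.07 (p-value 0.76) and 0.60 (p-value 0.0074), a mean of 0.33 ± 0.38. All were higher with ME on both arrays, but Dusp1, Fos and the first Jund probe passed the p threshold on the swapped array alone, so none was called. These were picked for size. The 20 probes of nuclear targets had a median of -0.002 in ME vs CONT, with 6 higher and 3 lower on both arrays. Among them, Jun gave -0.01 ± 0.21, Junb 0.21 ± 0.45 and Egr1 0.06 ± 0.07. Of the picked genes, in IE vs CONT Dusp1 gave -0.11 and 0.36 (0.13 ± 0.34) and Fos -0.03 and 0.44 (0.20 ± 0.33). The Jund probes gave -0.29 and 0.43 (0.07 ± 0.51) and -0.23 and 0.11 (-0.06 ± 0.24) there. Each was thus higher with IE on the swapped array alone, the array on which the ME ratios were also the larger. In IE vs ME, Fos gave -0.26 ± 0.01 and the Jund probes -0.28 ± 0.29 and -0.04 ± 0.29. Dusp1 gave 0.05 (p-value 0.85) and -0.94 (p-value 0.0026) there, on opposite sides of 0.

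Smaller values came from the other phosphatases and targets. Dusp4 gave 0.20 ± 0.07 with ME, and Dusp7 -0.16 ± 0.17 and Dusp2 -0.05 ± 0.05 with IE. On the IE vs ME arrays Dusp7 (0.85 and -1.30) and Dusp2 (1.37 and -0.62) pointed opposite ways, with fewer readings well above background. Dusp5 and Dusp6, phosphatases induced by ERK signalling, gave -0.13 ± 0.12 and -0.08 ± 0.09 in IE vs ME. Elk4 and Mef2a, transcription factors phosphorylated by MAP kinases, gave 0.26 ± 0.29 and -0.12 ± 0.04 with IE, and the other Mef2a probe 0.01 ± 0.05. Of the kinases that MAP kinases activate, Rps6ka5 gave 0.14 ± 0.14 and Mapkapk3 0.04 ± 0.05 in IE vs ME, and Rps6ka1 0.03 ± 0.03 with IE.

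The tissue was checked with marker lists. Probes of hippocampal neurons, astrocytes, oligodendrocytes and microglia (24 probes) were well above background in all readings but for 1 probe in IE vs ME, and had median log2 ratios from -0.028 to 0.049, with 0 called. Genes of neighbouring tissue differed between the pools. Of 9 meningeal probes, 5 were up-regulated with ME (median 0.943) and 5 down-regulated in IE vs ME (median -0.914). In IE vs CONT 0 were called, with a median of -0.024. Their summed signal was 4014 to 4170.3 units in CONT, 5312 to 7386 in ME and 2922 to 4002 in IE. The ME and IE sums here and below include the IE vs ME arrays, which hold no CONT. Of 8 choroid plexus probes, up-regulated ones numbered 3 in ME vs CONT, 4 in IE vs CONT and 2 in IE vs ME. Their summed signal was 671 to 1014 in CONT, 1168 to 1468 in ME and 3900.5 to 4697 in IE, and Ttr gave means of 0.91, 2.51 and 1.92. Gabra6, a gene of cerebellar granule cells, was up-regulated with ME and below background in every CONT and IE reading. The part of these tissues in the ratios of the MAP kinases and of Dusp1, Jund and Fos was not tested.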

How the data were processed

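RNA of rat hippocampus, 1 pool of 5 rats per group, was read on 6 two-colour Agilent arrays of 43379 spots. The authors scanned and processed the arrays with Agilent Feature Extraction (9.5.3.1 for the 4 arrays against CONT and 11.0.1.1 for the IE vs ME arrays, per the file headers), which subtracted the background and normalized the dyes by LOWESS. Each deposited scanner file gives a log10 ratio of Cy5 over Cy3, a p-value of the software's error model and processed intensity per spot. The deposited value table held the log10 ratio of the processed signals, with the sign of the second array of each pair turned. Gene names were missing from the columns of the IE vs ME files read here, and were carried over by probe name. Direction came from the dyes in the labels.

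From these files, ratios were converted to log2, turned to the first-named group, and averaged over spots not marked as outliers (92 to 302 spots per array were). A probe's p was the median over its spots. The 2 arrays of a pair hold the same pools by the methods (the labels number them as pools) and were counted as 1 replicate, so no test between groups was possible, and their number limits the precision. The share of spots detected in Cy3 and Cy5 alike ran from 66.5% to 74.4%. Calls combined the authors' ratio limits (1.5 and 0.75) with p below 0.01 on both arrays. Pathway and marker lists were matched by array name or, for 10735 probes on the array, through a RefSeq accession. Text names each MAP kinase probe. Per pathway list and comparison it names any called probe and up to 2 detected probes with the largest mean of 1 sign on both arrays. Other pathway probes are named where a count or a picked gene was explained. Marker probes are named as examples, and not every called one is. Members, lists and rules were chosen with earlier results of these data known. Alternatives covered the p threshold, fold rule, dim probes, outlier spots, background, value table, single arrays and a joint fit by limma 3.58.1 (R 4.3.3). Python 3.11.15 with pandas 2.3.3 and numpy 2.4.6 was used, and the calling step was tested on simulated data. Values of 1 further gene of the lists are not reported here.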

Additional observations from a re-analysis of the deposited data

Results flagged for a closer look

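No MAP kinase probe moved opposite ways with the 2 exercise speeds on every array. Of the pathway lists, only the probes picked for a large mean of 1 sign were searched, and 2 of these did. Outside that search, Nf1 A_42_P609446 also did, with 0.35 ± 0.24 with ME and -0.26 ± 0.13 with IE. It had 2 and 3 of 4 readings well above background in these comparisons, and gave -0.20 ± 0.57 in IE vs ME. The other Nf1 probe gave 0.04 ± 0.29 with ME and 0.03 ± 0.03 with IE. Map3k7 A_44_P300018 was lower with ME on both arrays (-0.19 ± 0.09) and higher with IE on both (0.24 ± 0.08), a difference of 0.43. When IE and ME were hybridised directly it gave -0.14 and 0.23 (0.05 ± 0.27), and the other Map3k7 probe, A_44_P932802, gave 0.02 ± 0.23 with ME and 0.01 ± 0.24 with IE. Hras A_44_P191864 gave -0.05 ± 0.01 and 0.03 ± 0.01, a difference of 0.08, and 0.00 ± 0.01 in the direct comparison. With 1 pool per group these differences were not tested, and each rests on a shared CONT pool.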

How the results depend on the processing

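The count of 0 called MAP kinase probes held in each comparison under a mean-fold rule, a limit of 1.5-fold either way, detected probes alone, outlier spots kept, both other treatments of the background and the deposited value table. All of these kept the software's p threshold on both arrays. With the main values only Mapk6 A_44_P461518 in ME vs CONT met it, so these settings had little room to add a call. The 1.5-fold limit and the detected probes alone are also narrower than the main rule and could not add one. Dropping the p threshold gave 1 in ME vs CONT (Mapk15) and 0 in the other comparisons. On single arrays (without replicate 1 or 2) the count was 1 to 1 in ME vs CONT, where Mapk6 A_44_P461518 passed upward on the first array and downward on the second, 0 to 0 in IE vs CONT, and 0 to 1 in IE vs ME (Mapk15 on the first array). For the 117 pathway probes, alternatives chosen after seeing the data gave 1 without the p threshold in IE vs ME (Dusp10), and on single arrays 1 to 5 in ME vs CONT, 0 to 1 in IE vs CONT and 3 to 5 in IE vs ME. The 5 in ME vs CONT were Mos, Dusp1, Jund, Map2k7 and Fos. The cause was not tested, beyond that 1 array leaves the dye in the ratio.

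Of the 48 mean ratios, 9 moved by more than their SD with normexp, 8 without background subtraction, 7 in a joint limma fit of the 6 arrays (at most 0.07) and 0 with outlier spots kept or with the value table. Dim signal limits Mapk15: most of its readings lay near or under the lowest level the software called well above background. On the swapped IE vs ME array they were higher, 33.2 (Cy3) and 42.8 (Cy5) against lowest levels of 19.9 and 9.78. No paired analysis was possible because the numbers in the labels mark the 2 dye-swapped arrays of a pair, counted as 1 replicate.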
